A study of Drosophila melanogaster with 6 samples.

Results

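The 31 genes described here encode subunits of the mitochondrial machinery of oxidative phosphorylation: 16 of complex I, 5 of complex III, 5 of complex IV and 5 of ATP synthase. They were chosen by name, as the listed genes of these complexes, out of 4018 genes tested in Drosophila S2 cells. The rule names genes and uses no measured value, although earlier results of these data were known when it was written. All 31 passed the minimum of 1 RPKM (reads relative to the length of the feature and the reads of the sample) averaged over the 6 samples. CG3192, with a control mean of 0.613 RPKM, and ATPsyn-d, with a control mean of 0.519 RPKM, passed only through higher values in the knockdown samples. The levels of both rest on few reads.

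Complex I takes electrons from NADH and passes them to ubiquinone, complex III carries them on to cytochrome c, and complex IV hands them to oxygen. The proton gradient built on the way drives ATP synthase, a rotary enzyme with a membrane part, a central shaft and an outer stalk. The subunits are encoded partly by nuclear and partly by mitochondrial genes, so nuclear transcripts such as those measured here supply a share of each complex.

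S2 is an embryo-derived cell line with features of blood cells. The 6 samples were of 3 groups, with 2 samples each: cells with a control knockdown, cells with a knockdown of NAP-1, a histone chaperone, and cells with a knockdown of CBP, an acetyltransferase of histones and other proteins. The labels name no other allele, agent, time or control target, and they describe no separate cultures, so p-values cover only differences among these libraries, and those may be technical. Libraries made with a stranded messenger RNA kit gave between 4162019 and 5362319 alignments per sample. In a bulk RNA sample, fewer cells of a kind and less RNA per cell cannot be told apart.

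The targeted transcripts were checked first. Nap1 stood at 220 and 243 RPKM in control cells, 20.6 and 26.5 with NAP-1 knocked down and 325 and 365 with CBP knocked down, and it fell by 3.25 ± 0.27 (SE) on the log2(RPKM + 1) scale in NAP-1 knockdown (limma, adjusted p = 0.0295). Its CBP difference did not pass (adjusted p = 0.148). The CBP transcript, nej, stood at 3.25 and 2.47 RPKM in control cells and at 0.899 and 0.363 after CBP knockdown, and it fell by 1.26 ± 0.37 on that scale (adjusted p = 0.0463). In NAP-1 knockdown nej measured 1.26 and 2.41 RPKM, a difference that did not pass the test. Over all genes the median CBP difference fell with transcript length, to -1.07 in the longest of 5 bins. Whether length had a part in the fall of nej was not tested. Of the blood cell markers with values here, crq, Cg25C and vkg exceeded the minimum. Hml, Pxn, He, eater and Sr-CI had no values here, so whether they were low cannot be told. Vkg, a type IV collagen chain, lay at 60.8 and 63.9 RPKM in control cells and at 31.5 and 25.2 after CBP knockdown, where it was called lower. Srp lay at or below 0.166 RPKM in every sample, and NimC1 was at 0 in 4 of the 6. Among neuron and muscle markers elav, the neuronal one with values here, was highest at 3.26 RPKM in control replicate 1. Whether these marker levels bear on the genes below was not tested.

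After CBP knockdown 6 of the 31 genes rose and 1 fell. The risers were NDUFA8, CG12859 and CG9350 of complex I, CG4169 of complex III, CG7630 of complex IV and CG4692 of ATP synthase, each with an increase of 1.12 to 1.32 on the log2(RPKM + 1) scale. The gene that fell was CG7580 of complex III, by 1.53 on the same scale. These are calls at an adjusted p under 0.05 in 1 limma model fitted to all 6 samples and adjusted over 4018 genes. Among all genes tested, 8.56% were called higher and 17.4% lower, against 19.35% and 3.226% of the 31 subunit genes.

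The median log2 difference between CBP knockdown and control was 0.49 over the subunit genes and -0.15 over all genes tested. By complex the median was 0.65 in complex I, 0.97 in complex III, -0.90 in complex IV and 0.29 in ATP synthase. These medians describe the listed genes alone. Other subunits above the minimum had medians of the opposite sign in complex IV (0.73, 3 genes) and ATP synthase (-1.44, 3 genes), with none called. Rescaling moved the median of all genes to 0.008 by median-of-ratios scaling and to 0.122 by quantile normalization, and the subunit median then stood at 0.663 and 0.63. The split of called genes moved with it, to 12.5% higher and 16.1% lower under the first scaling and to 9.51% and 10.7% under the second.

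The calls depended on single libraries. None of the 31 was called higher without control replicate 1, without control replicate 2 or without CBP replicate 2, and 2 were without CBP replicate 1. Calls fell across the whole table in these fits: the share of all genes called higher was 0% without control replicate 1 or CBP replicate 2, 1.02% without control replicate 2 and 2.76% without CBP replicate 1. Without either NAP-1 replicate, 12 of the 31 were called higher, where 13.1% and 13.6% of all genes were. The single call lower was also lost without either control replicate or without CBP replicate 2, and the subunit median stayed between 0.458 and 0.811 across the 6 omissions.

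**Figure D1:**
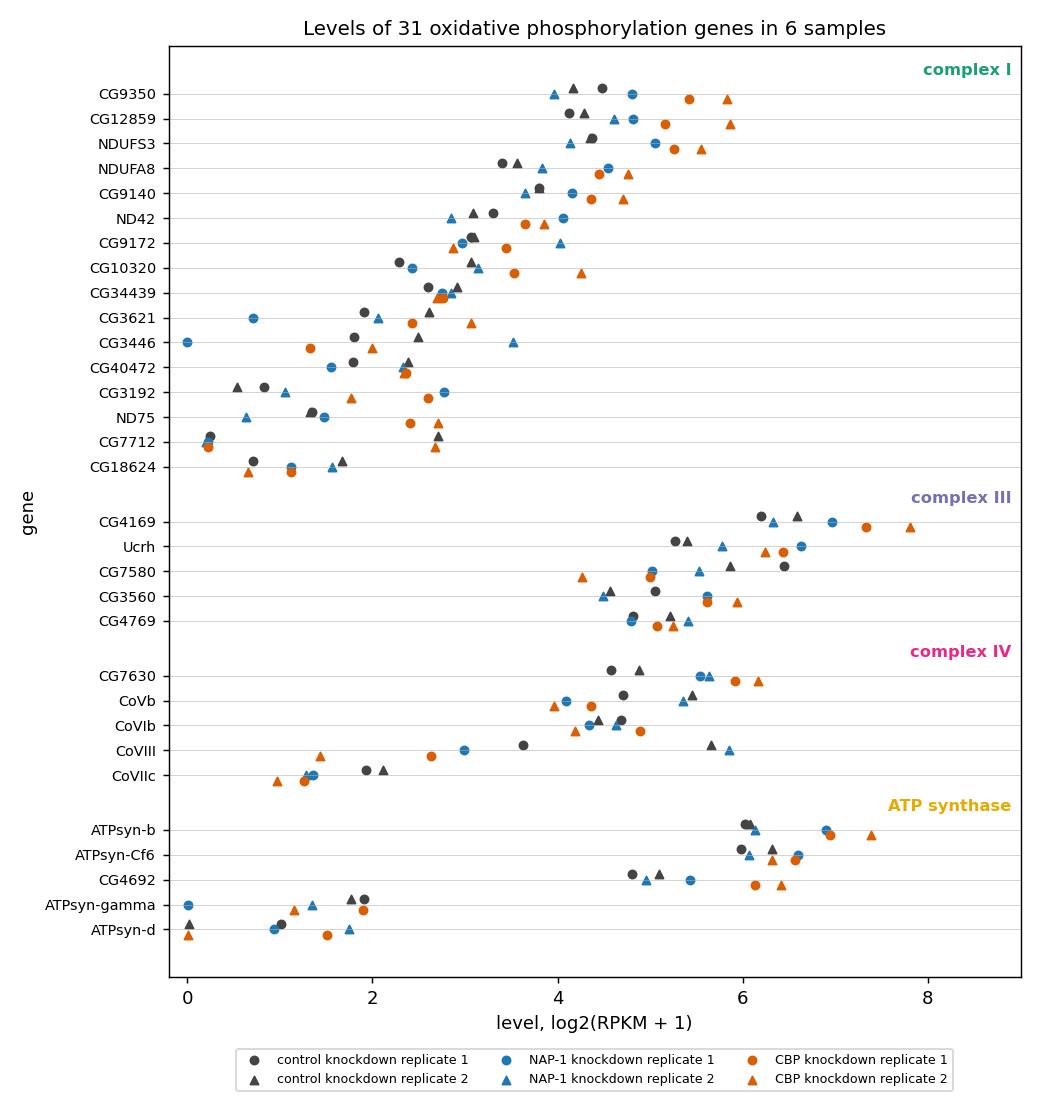
Level of each of the 31 genes in each of the 6 samples, on the log2(RPKM + 1) axis, grouped by complex and ordered by mean level; colours mark the group and symbols the replicate. For the 16 genes whose CBP samples both exceed both controls the orange points lie to the right of the grey ones. For ATPsyn-Cf6 this is a near tie, and for 4 genes the orange points lie to the left.

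Without regard to the test, both CBP knockdown samples lay above both controls for 16 of the 31 genes, and below both for 4. For all genes tested these shares were 33.7% above and 42.4% below, against 51.61% and 12.9% of the subunit genes. The 16 were 9 genes of complex I (CG3192, tied to the minimum, among them), 3 of complex III, 1 of complex IV and 3 of ATP synthase. ATPsyn-Cf6 counted by a near tie, with 78.48 RPKM in CBP replicate 2 and 78.38 RPKM in control replicate 2. The 4 below were CG7580 and the complex IV genes CoVIII, CoVIIc and CoVb.

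Summed over its listed genes, complex I stood at 116 and 131 RPKM in control cells and at 213 and 282 RPKM after CBP knockdown, a ratio of means of 2.00. ATP synthase genes summed to 157 and 181 RPKM in control cells and 289 and 331 RPKM after CBP knockdown, a ratio of 1.84. Complex III genes summed to 256 and 252 RPKM in control cells and 357 and 413 RPKM after CBP knockdown, a ratio of 1.52. For these 3 complexes both CBP sums lay above both control sums. The complex IV sums of 114 and 105 RPKM after CBP knockdown lay between the control sums of 86.8 and 144 RPKM, with a ratio of 0.949. The share of complex IV in the summed level of all 31 genes was 14.1% and 20.4% in the controls and 11.8% and 9.29% after CBP knockdown. Summed over all 4018 genes tested, the ratio of CBP knockdown to control was 1.22. The sums are descriptions, weighted to the genes with the highest levels, and were not tested.

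**Figure D2:**
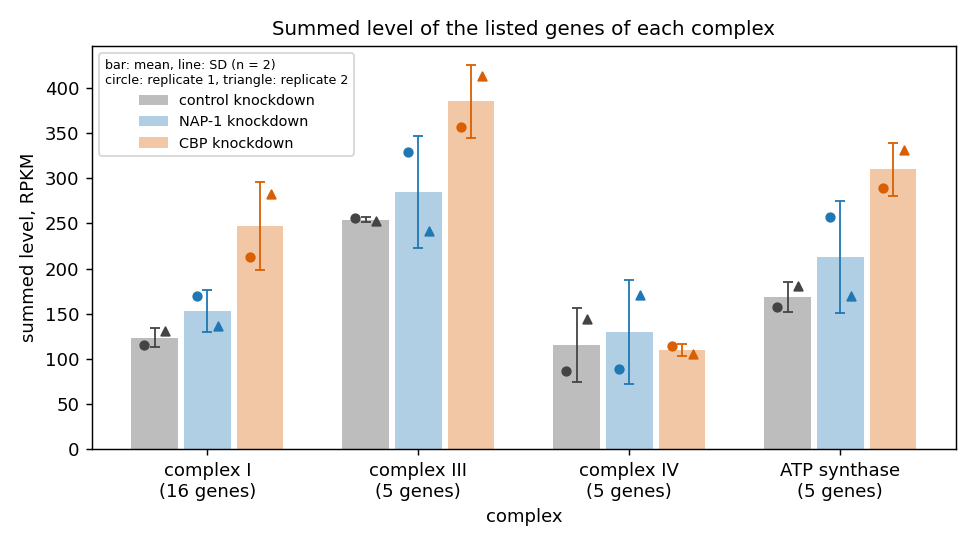
Summed RPKM of the listed genes of each complex, as bars for the mean of 2 samples with lines for the SD and points for single samples. Complex I, complex III and ATP synthase stand highest after CBP knockdown (means of 247, 385 and 309.9 RPKM), and the complex IV bars, from 109.8 to 129.9 RPKM, lie within the spread of the control samples.

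Complex I, the largest of the complexes, had 3 genes called higher after CBP knockdown, none called lower, and 12 of 16 with a positive difference, as had 44.57% of all genes. CG9350, an accessory subunit listed by RefSeq as ND-B14.7, stood at 21.3 and 16.9 RPKM in control cells, 26.9 and 14.5 with NAP-1 knocked down and 41.8 and 56.1 with CBP knocked down. It has the highest mean level of the complex I genes, and its 2 CBP samples were the highest of the 6. The difference from control was 1.31 ± 0.35 (SE, n = 2 per group, adjusted p = 0.0390).

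CG12859 (ND-B15), an accessory subunit of the membrane arm, stood at 16.4 and 18.5 RPKM in control cells, 27.0 and 23.4 with NAP-1 knocked down and 34.8 and 57.0 with CBP knocked down. Both NAP-1 samples lay above the controls and below both CBP samples, so the 3 groups did not overlap. The CBP difference was 1.31 ± 0.31 (adjusted p = 0.0290). NDUFA8 (ND-19), an accessory subunit with twin cysteine motifs, stood at 9.58 and 10.8 RPKM in control cells, 22.3 and 13.2 with NAP-1 knocked down and 20.9 and 26.1 with CBP knocked down. All 4 knockdown samples exceeded both controls, and the CBP difference was 1.12 ± 0.32 (adjusted p = 0.0428).

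The core subunits, which carry the electron path, did not pass the test. ND75, the large iron-sulfur subunit, stood at 1.55 and 1.5 RPKM in control cells, 1.78 and 0.553 with NAP-1 knocked down and 4.29 and 5.53 with CBP knocked down. The CBP samples were clear of the other 4, and the difference of 1.22 ± 0.37 had an adjusted p of 0.0531. NDUFS3 (ND-30), a core subunit of the peripheral arm, stood at 19.6 and 19.4 RPKM in control cells, 32.3 and 16.6 with NAP-1 knocked down and 37.2 and 45.9 with CBP knocked down, with a CBP difference of 1.05 ± 0.35 (adjusted p = 0.0647). CG9140 (ND-51), which binds the flavin that accepts electrons from NADH, stood at 12.9 and 12.9 RPKM in control cells, 16.9 and 11.6 with NAP-1 knocked down and 19.5 and 25.2 with CBP knocked down (difference 0.73 ± 0.29, adjusted p = 0.0964). CG9172 (ND-20), which holds the last iron-sulfur cluster before ubiquinone, stood at 7.37 and 7.55 RPKM in control cells and at 9.85 and 6.30 after CBP knockdown. Its CBP and control samples overlapped, unlike those of the other core subunits among the 31 genes.

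CG3192 (ND-ASHI), an accessory subunit of the membrane arm, had the highest fitted difference of the complex in both knockdowns. It stood at 0.778 and 0.449 RPKM in control cells, 5.84 and 1.08 with NAP-1 knocked down and 5.05 and 2.41 with CBP knocked down. All 4 knockdown samples lay above the controls, but with differences of 1.23 ± 0.59 for NAP-1 (adjusted p = 0.977) and 1.5 ± 0.59 for CBP (adjusted p = 0.0982) neither passed. Since it met the minimum only through its knockdown samples, its direction is tied to that choice of genes. The NAP-1 difference was 0.376 without NAP-1 replicate 1 and 2.092 without NAP-1 replicate 2. CG10320 (ND-B12), a small membrane arm subunit, stood at 3.88 and 7.35 RPKM in control cells, 4.39 and 7.83 with NAP-1 knocked down and 10.6 and 18.1 with CBP knocked down (difference 1.22 ± 0.42, adjusted p = 0.0721). ND42, an accessory subunit, stood at 8.84 and 7.52 RPKM in control cells, 15.7 and 6.22 with NAP-1 knocked down and 11.6 and 13.5 with CBP knocked down (difference 0.56 ± 0.41, adjusted p = 0.331).

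Several accessory subunits at low levels varied as much within a group as between groups. CG3446 (ND-B16.6), which has the lowest CBP difference of the complex, stood at 2.49 and 4.62 RPKM in control cells, 0.000196 and 10.5 with NAP-1 knocked down and 1.52 and 2.97 with CBP knocked down. Its NAP-1 samples were the lowest and the highest of the 6, and the CBP difference of -0.49 ± 1.02 did not pass (adjusted p = 0.743) and was 0.006 under quantile normalization. CG7712 (ND-B14), which has the lowest NAP-1 difference of the complex, stood at 0.184 and 5.52 RPKM in control cells, 0.165 and 0.154 with NAP-1 knocked down and 0.172 and 5.40 with CBP knocked down. Its values took 2 levels, near 5.5 RPKM in control replicate 2 and CBP replicate 2 and below 0.2 RPKM in the other 4 samples, so the fitted NAP-1 difference of -1.26 ± 0.98 (adjusted p = 0.977) followed a single control library.

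The remaining complex I genes had control samples that overlapped those of each knockdown. CG3621 (ND-B14.5A) stood at 2.75 and 5.09 RPKM in control cells, 0.630 and 3.16 with NAP-1 knocked down and 4.39 and 7.38 with CBP knocked down, so that its CBP samples both lay above its NAP-1 samples. CG34439 (ND-MWFE), a small subunit with a membrane span, was the steadiest, with all 6 samples between 5.05 and 6.52 RPKM. CG18624 (ND-MNLL) ranged from 0.574 to 2.18 RPKM. CG40472, for which RefSeq lists the synonym ND-AGGGL, ranged from 1.93 to 4.21 RPKM, and since the genome holds a similar gene, ND-AGGG, its reads could be split between the 2 copies.

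Complex III had 1 gene called higher and 1 called lower after CBP knockdown. CG4169 (UQCR-C2), a core protein on the matrix side, had the highest mean level of all 31 genes in the controls. It stood at 72.4 and 95 RPKM in control cells, 124 and 79.2 with NAP-1 knocked down and 160 and 223 with CBP knocked down. The CBP samples lay above the other 4, with a difference of 1.18 ± 0.34 (adjusted p = 0.0462).

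CG7580 (UQCR-Q), a small ubiquinone-binding subunit, moved the other way. It stood at 86.4 and 57.2 RPKM in control cells, 31.5 and 45.0 with NAP-1 knocked down and 30.8 and 18.3 with CBP knocked down. All 4 knockdown samples lay below both controls. The CBP difference was -1.53 ± 0.37 (adjusted p = 0.0309), and the NAP-1 difference of -0.88 ± 0.37 did not pass (adjusted p = 0.977). In the controls this gene ranked second of the 31, next to CG4169, and after CBP knockdown their levels were several-fold apart.

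Ucrh (UQCR-11), the acidic hinge protein that helps cytochrome c dock, stood at 37.6 and 41.2 RPKM in control cells, 98.1 and 53.9 with NAP-1 knocked down and 85.5 and 74.8 with CBP knocked down. All 4 knockdown samples exceeded both controls, and neither difference passed, with 0.87 ± 0.33 for NAP-1 (adjusted p = 0.977) and 1.00 ± 0.33 for CBP (adjusted p = 0.0647). Without NAP-1 replicate 1 the NAP-1 difference of Ucrh was 0.443. CG3560 (UQCR-14) stood at 32.2 and 22.7 RPKM in control cells, 47.9 and 21.5 with NAP-1 knocked down and 48.0 and 60.3 with CBP knocked down (CBP difference 0.97 ± 0.41, adjusted p = 0.117). CG4769 (Cyt-c1), the haem-bearing subunit that passes electrons to cytochrome c, stood between 26.8 and 41.6 RPKM in all 6 samples, and its groups overlapped.

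Complex IV genes here are nuclear-encoded subunits that surround a catalytic centre made in the mitochondrion. CG7630 (COX7B) had the smallest adjusted p of the 31. It stood at 22.9 and 28.4 RPKM in control cells, 45.4 and 48.8 with NAP-1 knocked down and 59.6 and 70.7 with CBP knocked down. The 3 groups did not overlap, and the differences were 0.86 ± 0.26 for NAP-1 (adjusted p = 0.977, unadjusted p = 0.0124) and 1.31 ± 0.26 for CBP (adjusted p = 0.0189).

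The other complex IV genes among the 31 did not share this direction, and none of them passed the test. CoVIII (COX8), a short membrane subunit, stood at 11.4 and 49.4 RPKM in control cells, 6.96 and 56.7 with NAP-1 knocked down and 5.19 and 1.70 with CBP knocked down. Replicates 1 and 2 differed more than 4-fold in the control group and in the NAP-1 group. The CBP difference of -2.61 ± 1.03, the lowest of the 31, had an adjusted p of 0.0967, and it was -3.623 without control replicate 1 and -1.598 without control replicate 2. CoVIIc (COX7C) stood at 2.80 and 3.32 RPKM in control cells, 1.56 and 1.42 with NAP-1 knocked down and 1.4 and 0.958 with CBP knocked down. All 4 knockdown samples lay below both controls, with differences of -0.70 ± 0.31 for NAP-1 (adjusted p = 0.977) and -0.90 ± 0.31 for CBP (adjusted p = 0.0672). CoVb (COX5B), the highest-standing complex IV gene in the controls by mean, held 25.02 and 42.7 RPKM there, 16 and 40 with NAP-1 knocked down and 19.6 and 14.6 with CBP knocked down (CBP difference -0.91 ± 0.47, adjusted p = 0.181, and -0.538 without control replicate 2). CoVIb (COX6B), which faces the intermembrane space, stayed between 17.2 and 28.6 RPKM with overlapping groups.

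ATP synthase had 1 gene called higher after CBP knockdown. CG4692 (ATPsynF), subunit f of the membrane part, stood at 27.0 and 33.3 RPKM in control cells, 42.2 and 29.9 with NAP-1 knocked down and 69.1 and 84.5 with CBP knocked down. The CBP samples were the highest of the 6, with a difference of 1.32 ± 0.29 (adjusted p = 0.0247). ATPsyn-b, of the outer stalk and with the highest mean level in this complex, stood at 64 and 66.4 RPKM in control cells, 118 and 69.3 with NAP-1 knocked down and 122 and 167 with CBP knocked down. Its 4 knockdown samples all exceeded the controls, and the CBP difference of 1.12 ± 0.34 had an adjusted p of 0.0519.

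ATPsyn-Cf6, coupling factor 6 of the outer stalk, stood at 62.4 and 78.4 RPKM in control cells, 95.9 and 66.1 with NAP-1 knocked down and 93.8 and 78.5 with CBP knocked down, a small difference of 0.29 ± 0.30 for CBP (adjusted p = 0.484). ATPsyn-gamma, the central shaft, stood at 2.74 and 2.42 RPKM in control cells, 0.0031 and 1.54 with NAP-1 knocked down and 2.72 and 1.22 with CBP knocked down. It had the lowest NAP-1 difference of the complex, -1.16 ± 0.51 (adjusted p = 0.977), which was -0.494 without NAP-1 replicate 1 and -1.834 without NAP-1 replicate 2. Its CBP difference of -0.32 ± 0.51 changed sign under quantile normalization and without CBP replicate 2. ATPsyn-d, of the outer stalk, stood at 1.02 and 0.0134 RPKM in control cells, 0.913 and 2.36 with NAP-1 knocked down and 1.84 and 0.00476 with CBP knocked down. Replicate 2 was near 0 in both the control and the CBP group, and the NAP-1 difference of 0.82 ± 0.62 did not pass (adjusted p = 0.977). ATPsyn-d met the minimum only through its knockdown samples, so its direction is tied to that choice of genes.

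**Figure D3:**
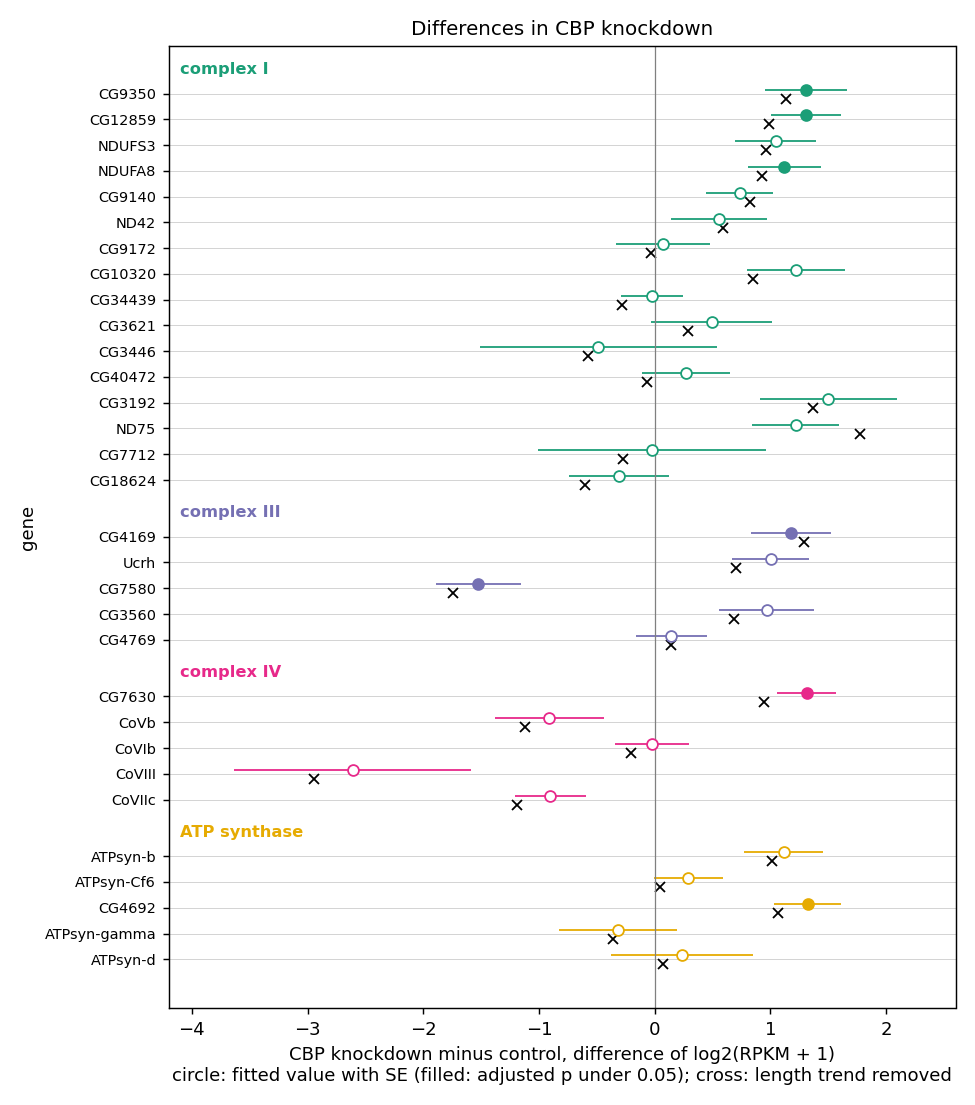
Fitted difference between CBP knockdown and control for each gene on the log2(RPKM + 1) scale, with circles for the fit (line: SE, filled: adjusted p under 0.05) and crosses for the value after removal of a trend with transcript length. The 6 filled circles right of 0 lie at 1.12 to 1.32 and the filled circle left of 0, CG7580, lies at -1.53.

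NAP-1 knockdown was set against the same 2 control samples, so the comparisons with control share them. No subunit gene passed in either direction in the limma test, where 0% of all genes were called higher and 0.0249% lower. At an unadjusted p under 0.05 there were 2 higher, Ucrh and CG7630, and 1 lower, CG7580, where 0.946% of all genes were higher and 2.51% lower. The median difference was 0.11 over the 31 genes and -0.13 over all genes. It was 0.11 in complex I, 0.24 in complex III, -0.22 in complex IV and 0.24 in ATP synthase.

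Both NAP-1 samples lay above both controls for 6 of the 31 genes, NDUFA8, CG12859, CG3192 (tied to the minimum), Ucrh, CG7630 and ATPsyn-b. Both lay below for 4, CG7712, CG7580, CoVIIc and ATPsyn-gamma. CG7712 counted by a near tie at very low levels, with 0.165 and 0.154 RPKM against 0.184 RPKM in control replicate 1. Among all genes tested these shares were 8.04% above and 26.2% below. For 9 of the 31 genes the 2 NAP-1 samples differed more than 2-fold from each other, on the log2(RPKM + 1) scale, against 2 genes in the control group and 3 in the CBP group. Those 9 were ATPsyn-gamma, CG3192, CG3446, CG3560, CG3621, CG9172, CoVIII, CoVb and ND42. Across all genes tested such differences were found for 7.77% in the control group, 15.7% in the NAP-1 group and 11.95% in the CBP group.

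A direct comparison set NAP-1 knockdown against CBP knockdown. No subunit gene passed the limma test, where 2.99% of all genes were called higher and 2.36% lower in NAP-1 knockdown. The median difference, NAP-1 minus CBP, was -0.42 over the 31 genes and 0.07 over all genes. At an unadjusted p under 0.05 no gene was higher and 7 were lower, ND75, CG10320, CG12859, CG3621, CG9350, CG4169 and CG4692, where 17.7% of all genes were higher and 13.9% lower. ND75 had the lowest difference, -1.5 ± 0.37 (adjusted p = 0.0638), followed among the smallest p by CG4692 at -1.08 ± 0.29 (adjusted p = 0.0701) and CG9350 at -1.25 ± 0.35 (adjusted p = 0.0781). Without NAP-1 replicate 1, 4 subunit genes and 7.59% of all genes were called lower, with ND75 at -1.92 (adjusted p = 0.041).

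For 10 of the 31 genes the table holds more than 1 distinct feature, and the features of a gene could move apart while their sum did not. ATPsyn-Cf6 has 1 feature named by the symbol alone, at 22.8 and 20.3 RPKM in control cells, 2.68 and 16.7 with NAP-1 knocked down and 0.382 and 1.05 with CBP knocked down. Its RefSeq mRNA feature stood at 39.6 and 58.1 RPKM in control cells, 93.2 and 49.4 with NAP-1 knocked down and 93.4 and 77.4 with CBP knocked down. The symbol-only feature thus held 36.5% and 25.9% of the gene's sum in the controls and 0.408% and 1.34% after CBP knockdown, with NAP-1 replicate 1 (2.79%) near the CBP samples and NAP-1 replicate 2 (25.3%) near the controls.

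The first mRNA feature of Ucrh held 27.9% and 57.6% of the gene's sum in the controls, 0.0765% and 76.5% with NAP-1 knocked down and 9.41% and 10.9% with CBP knocked down. NAP-1 replicates 1 and 2 were the lowest and the highest of the 6. Ucrh had mRNA features but no symbol-only feature here, so its sum may miss transcripts. For CG7580 the larger mRNA feature stood at 76.3 and 33.8 RPKM in control cells, 23.4 and 18.9 with NAP-1 knocked down and 26.2 and 14.9 with CBP knocked down, and the next at 10.1 and 23.4, 8.11 and 26.1, and 4.61 and 3.39 RPKM in the same order. Both of these features were lower in each CBP sample than in each control sample. The symbol-only feature of CoVIb stood at 3.04 and 2.88 RPKM in control cells and 1.35 and 0.647 after CBP knockdown, a small part of that gene's level. Feature values were not tested, and as estimates that divide reads between overlapping transcripts they are less certain than the sums.

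**Figure D4:**
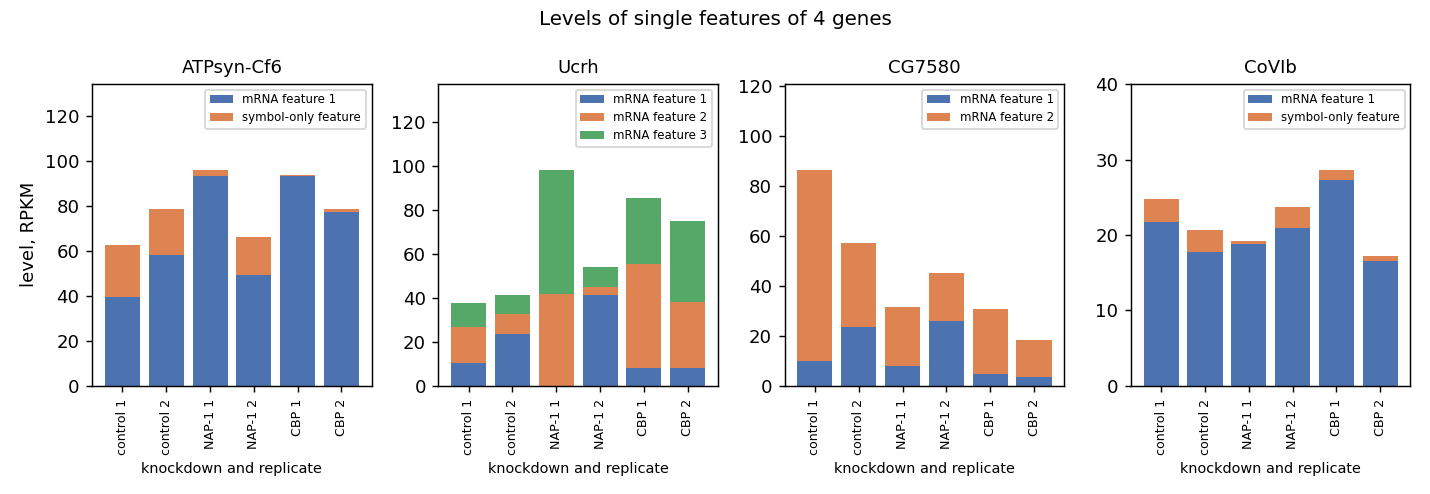
Levels in RPKM of the single features of 4 genes in the 6 samples, stacked to the gene's sum; features that never exceeded 0.1% of the sum are not drawn. The symbol-only feature of ATPsyn-Cf6 holds 36.5% and 25.9% of the sum in the controls and 0.408% and 1.34% after CBP knockdown, while the sums of ATPsyn-Cf6 range from 62.4 to 95.9 RPKM.

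The subunit transcripts are short. Their median transcript length was 659.5 nt, from 417 to 2557 nt, against 1702 nt for all genes tested, and 24 of the 31 fell in the shortest of 5 length bins, from 116 to 966 nt. The CBP difference of all genes moved with length, from a median of 0.29 in that bin to -1.07 in the longest. In the shortest bin 13.9% of genes were called higher and 4.12% lower, against 3% and 40.4% in the longest.

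With a smooth trend on transcript length removed from each sample, 3 of the 31 genes were called higher after CBP knockdown and 2 lower. Both shares lay below those of all genes, 11.1% higher and 10% lower. CG7630 (0.94, adjusted p = 0.041) and CG4692 (1.07, adjusted p = 0.0441) kept their calls, and ND75, the longest of the 31 transcripts, gained one (1.77, adjusted p = 0.0301). CG7580 remained lower (-1.74, adjusted p = 0.0301) and CoVIIc was also called lower (-1.19, adjusted p = 0.0322). CG4169 (adjusted p = 0.0519), CG12859 (0.0624), CG9350 (0.0708) and NDUFA8 (0.0767) no longer passed. The median over the 31 genes was 0.287, beside 0.086 over all genes. The part of transcript length in these differences was not tested beyond this.

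**Figure D5:**
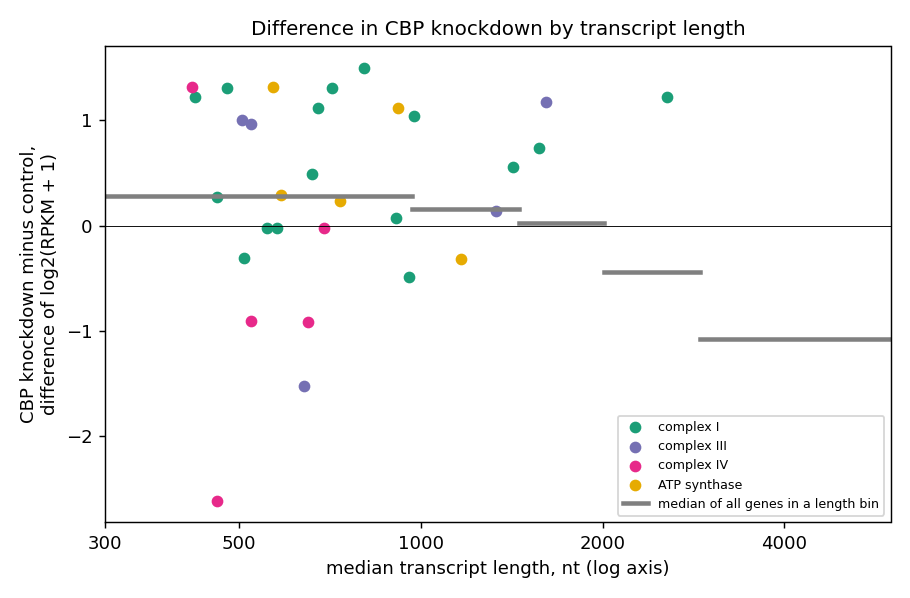
CBP difference from control on the log2(RPKM + 1) scale against median transcript length on a log axis, with points for the 31 genes by complex and grey lines for the median of all genes in each of 5 length bins, cut at the edges of the axis. The lines fall from 0.29 in the shortest bin to -1.07 in the longest, and the points, most of them in the shortest bin, lie on both sides of the first line.

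Depth limited the low genes. Multiplying RPKM by transcript length and by the number of alignments gave a mean of about 1037 alignments per sample for CG4169, under 30 for 11 of the 31 genes and under 10 for 5, CG18624, CG7712, CG40472, CoVIIc and ATPsyn-d. A small difference in these 5 genes may not be detectable at this depth, which was not tested. CoVIIc, called lower after CBP knockdown with the length trend removed, rested on a mean of about 5 alignments per sample. Lengths came from a newer annotation, so these figures are approximate.

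In the controls the order of levels ran from CG4169 (72.4 and 95 RPKM), CG7580 (86.4 and 57.2), ATPsyn-Cf6 (62.4 and 78.4) and ATPsyn-b (64 and 66.4), each overlapping its neighbour in the order, to Ucrh (37.6 and 41.2), which lay below all 4. At the low end ND75, CG18624, CG3192 and ATPsyn-d had means of 1.53, 1.41, 0.613 and 0.519 RPKM. The complex I genes all stood below 22 RPKM in both controls.

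Other subunits of the respiratory chain and ATP synthase, together with cytochrome c, gave 22 further genes above the minimum. The remaining listed subunits were below it or had no values here. After CBP knockdown 1 of the 22 was called higher and none lower, 14 had a positive difference (44.57% of all genes had), and the median was 0.325. By complex the median was 0.49 over 11 genes of complex I and 0.08 over 4 of complex III with cytochrome c. It was 0.73 over 3 genes of complex IV and -1.44 over 3 of ATP synthase, both opposite in sign to the medians of the listed genes. The called gene was CG11455 (ND-15), a complex I subunit, at 18.4 and 20.01 RPKM in control cells, 23.4 and 17.4 with NAP-1 knocked down and 33.4 and 40.1 with CBP knocked down (difference 0.90 ± 0.27, adjusted p = 0.0485). In NAP-1 knockdown none of the 22 was called in either direction and the median was 0.103. Of 5 assembly factors above the minimum, none was called in either knockdown.

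Of 7 genes of the citrate cycle, which supplies the NADH that complex I oxidizes, none rose and 1 fell after CBP knockdown. Acon, the mitochondrial aconitase that turns citrate into isocitrate, stood at 34.7 and 31.5 RPKM in control cells, 32.1 and 23.0 with NAP-1 knocked down and 6.74 and 7.39 with CBP knocked down. Its difference was -2.08 ± 0.27 (adjusted p = 0.0145), and it was the single citrate cycle gene called between the knockdowns, higher in NAP-1 than in CBP knockdown by 1.81 ± 0.27 (adjusted p = 0.0374). The other 6 did not pass in any comparison.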

How the data were processed

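The authors deposited 1 table of RPKM values for 6 samples, together with a count of alignments per sample, per the file headers. Per the submitters' processing notes the genome build was dm3. The aligner and the quantification program were not given in the sources used here. Of 16381 features in the table, 4490 were used and 11891 were not used here: those had a mean under 1 RPKM, repeated the values of a feature of the same symbol, or, for 4 genes, had a name that could not be told from a value or ends in an apostrophe. For the subunit genes every feature was summed, whatever its level, whereas for genes outside the lists and the targeted genes the minimum applied to each feature before summing, so their sums may lack weak transcripts. Features are isoform-like and their values are estimates, not whole reads (lowest value above 0 among the subunit genes 3.7e-33 RPKM), so no count test was run. Features were summed per symbol, repeats within a symbol dropped (9 of 53 for the subunit genes), and a mean of at least 1 RPKM was required, which left 4018 genes. A gene whose features were listed in part is represented by those alone. The table has 16384 columns, and its features named by symbol alone stop at part of the alphabet, so sums per symbol may miss transcripts. A listed gene without values here may be low or may be missing from the deposited values, and this was not settled for single genes. For 4001 genes a RefSeq name and a BDGP6 transcript length were found, including all 31; that build differs from dm3, so names and lengths alone were used.

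limma 3.58.1 in R 4.3.3 was fitted to log2(RPKM + 1) of all 6 samples with a variance trend, and p-values were adjusted by the Benjamini-Hochberg method across all 4018 genes and called under 0.05; that scale understates changes of low genes. The fit was tested on simulated data. Alternatives covered the pseudocount, minimum, scaling, samples in the fit, replicate block, variance trend, transcript length (loess, span 0.5), features summed and each sample left out. The genes and lists were chosen with earlier results of these data known. Every subunit gene is accounted for; values per sample are given for called genes and, in each complex, for those with the highest mean level and the highest and lowest differences in each knockdown, and for other low or borderline genes chosen after their values were seen. Summaries used Python 3.11.15 with pandas 2.3.3 and figures matplotlib 3.10.9. No sequences were printed and no promoter motifs were searched here.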

Additional observations from a re-analysis of the deposited data

How the results depend on the processing

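The number of subunit genes called higher after CBP knockdown, 6, became 10 under median-of-ratios scaling, 12 with 4 samples in the fit, 3 with the length trend removed and 0 with RefSeq mRNA features alone, where 12 of the 31 genes could be tested. The share of all genes called higher, 8.56%, became 12.5%, 13.9%, 11.1% and 3.36% in these fits. Smaller shifts were to 4 with a pseudocount of 0.1, 4 under quantile normalization, 5 without the variance trend and 7 with repeated features kept. The shares of all genes there were 6.92%, 9.51%, 7.77% and 8.59%. NDUFA8 and CG4169 lost their calls with the pseudocount of 0.1 and without the variance trend. The number called lower, 1, became 2 with the length trend removed and 0 with RefSeq mRNA features alone, where the share of all genes, 17.4%, became 10% and 15.9%. The median CBP difference, 0.492, became 0.967 with a mean of at least 5 RPKM, 0.663 under median-of-ratios scaling, 0.63 under quantile normalization, 0.287 with the length trend removed and 0.19 with RefSeq mRNA features alone. The median NAP-1 difference, 0.111, became 0.239 at the 5 RPKM minimum and 0.247 under quantile normalization. The median of NAP-1 minus CBP, -0.415, became -0.257 under quantile normalization, -0.237 with the length trend removed and -0.218 with RefSeq mRNA features alone. ATPsyn-gamma's CBP difference reversed to 0.259 under quantile normalization and 0.057 without CBP replicate 2, and that of CG3446 to 0.006 under quantile normalization. The causes were not tested.

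With single samples left out, the number called higher after CBP knockdown ranged from 0 to 12, the number lower from 0 to 1, and the median from 0.458 to 0.811. The median NAP-1 difference ranged from 0.045 to 0.23, the median of NAP-1 minus CBP from -0.56 to -0.269, and the number lower in NAP-1 than CBP from 0 to 4. The CBP difference of ATPsyn-gamma ranged from -0.69 to 0.057. A group left with 1 sample was assumed to vary like the others.

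Replicate numbers are shared in the titles. The replicate differences correlated at 0.241 between control and NAP-1, 0.125 between control and CBP and -0.244 between NAP-1 and CBP. With 1 replicate difference per group, these values cannot settle whether samples with the same number were handled together. With the replicate block, 4 genes were called higher and 1 lower after CBP knockdown, with a median of 0.492, where 4.8% and 12.7% of all genes were. With the length trend removed as well, 0 and 0 were called, where 4.12% and 4.25% of all genes were, with medians of 0.287 for CBP and -0.237 for NAP-1 minus CBP. Of 162 values of counts and medians under alternatives 126 stayed close to the reported value. Of 561 values of single genes 478 kept their direction and side of the threshold. Both totals include NAP-1 results against control that were never called under any alternative, so they say little about the CBP calls. NDUFA8, CG9350 and CG4169 lost their CBP calls under quantile normalization, with the replicate block and with the length trend removed. CG7630, CG4692 and CG7580 kept theirs in these fits. Among the same fits CG12859 lost its call only with the length trend removed. All of these genes lost their calls with the length trend removed and the replicate block together. A fit with no minimum was not run. The number of alignments limits what the low genes can show.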
